A study of Mus musculus with 12 samples.

Results

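Steroid hormone receptors and genes that mark or answer hormone-sensing cells were followed in cultured mouse mammary epithelial cells. The set holds 9 genes, found as the rows of the deposited gene annotation that carry the symbols Esr1, Pgr, Nr3c1, Nr3c2, Tnfsf11, Tnfrsf11a, Greb1, Fkbp5 and Cited1, out of 28427 rows in all. Each symbol had 1 row. The cells came from the C57BL/6 strain and were sampled in 4 groups of 3 libraries: spheroids at 96 h, monolayers at 96 h, spheroids at 48 h and monolayers at 48 h. Spheroids grew inside phenol red-free, growth factor-reduced Matrigel, a gel of basement membrane proteins, and their medium was renewed after 48 h. Monolayers grew on dishes coated with collagen. All 4 groups received 1 µM of progesterone, the steroid of pregnancy, and 1 µg/mL of prolactin, the pituitary milk hormone, in a supplemented basal medium, so there was no culture without these hormones. The sources used here do not give the composition of the supplements, so the presence of oestrogen or of a glucocorticoid is not known. Spheroids and monolayers also differ in matrix, and the labels state the renewal of medium for the gels alone, so effects of format, of matrix and, at 96 h, of medium renewal cannot be told apart. Within spheroids, the renewal came between 48 h and 96 h, so effects of time and of renewal cannot be told apart there. The same holds where changes with time are compared between formats. The series concerns how chromosome segregation depends on what surrounds the cell; here the comparisons ask how the hormone genes differed with culture format and time.

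Steroid hormone receptors are transcription factors that bind a steroid and then act on DNA. In the mammary gland, oestrogen receptor alpha (Esr1) and progesterone receptor (Pgr) are found in one class of luminal cell, the hormone-sensing cell, which passes the signal on to its neighbours through secreted factors such as RANKL (Tnfsf11), the ligand of RANK (Tnfrsf11a). The glucocorticoid receptor (Nr3c1) is present in nearly all cells and acts together with prolactin in milk production, and the mineralocorticoid receptor (Nr3c2) is best known for sodium transport in other epithelia. Among the remaining genes, Greb1 and Pgr are textbook oestrogen receptor targets, Cited1 is a cofactor found in hormone-sensing luminal cells, and Fkbp5, a co-chaperone of steroid receptors, is induced by glucocorticoids and by progesterone.

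Library totals lay between 7674105 and 13554497 counts, and 13951 of the 28427 rows passed the filter on low counts. Spheroids and monolayers lay apart along the first principal component, with 59.6% of the variance. Levels are given as CPM, counts scaled to a common library size with TMM factors; a count of 3 equalled 0.221 to 0.391 CPM, depending on the library. Of 10 markers of hormone-sensing luminal cells, which include 4 of the 9 genes, none was at 0 in any whole group. Their summed level was 394 to 396 CPM in 96 h spheroids and 165 to 186.8 CPM in 96 h monolayers, and 687.8 to 704.6 CPM in 48 h spheroids against 193.1 to 215.6 CPM in 48 h monolayers. Ly6a was the highest of them in every group but the 96 h spheroids, where Prlr was. Of 9 tested, 8 were higher and none lower in spheroids at each time, by edgeR at an adjusted p of 0.05. Prom1 passed at neither time, and at 48 h it was at 15.4 CPM in spheroids and 18.3 CPM in monolayers. Foxa1, the pioneer factor that opens chromatin for the oestrogen receptor, was at 18.9 CPM in 96 h spheroids and 12.4 CPM in 96 h monolayers, and at 39.2 CPM in 48 h spheroids and 29.3 CPM in 48 h monolayers. Markers of other cells moved with the groups too. The summed level of 10 fibroblast markers, none of them at 0, was 690.3 to 747.7 CPM in 96 h spheroids against 1748 to 2392 CPM in 96 h monolayers, and 2010 to 2276 CPM in 48 h spheroids against 7713 to 8477 CPM in 48 h monolayers. By edgeR at an adjusted p of 0.05, 2 of them were higher and 5 lower in spheroids at 96 h, and 4 higher and 5 lower at 48 h. At 48 h Col1a1 was at 719 CPM in spheroids and 4030 CPM in monolayers, whereas Dcn was at 193 and 107 CPM. The list of 12 markers of secretory and progenitor luminal cells also holds Krt8, Krt18, Krt19 and Epcam, which mark luminal or epithelial cells more widely. These 12 summed to 9935 to 10530 CPM in 96 h spheroids against 3752 to 4060 CPM in 96 h monolayers. At 48 h the sums were 6742 to 7147 CPM in spheroids against 8697 to 10220 CPM in monolayers. Krt8 was the highest of them in every group but the 96 h spheroids, where Csn3 was. Of 11 tested, 10 were higher and none lower in spheroids at 96 h, and 7 higher and 3 lower at 48 h, by edgeR. The 3 lower ones were Krt8, Krt18 and Epcam. At 48 h Krt8 was at 2150 CPM in spheroids and 4250 CPM in monolayers, whereas Csn3 was at 399 and 53.1 CPM. Wap was at 0 in every group but the 96 h spheroids, and Lalba in 48 h monolayers. The 10 markers of basal cells summed to 1452 to 1494 CPM in 96 h spheroids against 446.6 to 553.9 CPM in 96 h monolayers, and to 1678 to 1785 CPM in 48 h spheroids against 2185 to 2367 CPM in 48 h monolayers. Of these, 5 were higher and 5 lower in spheroids at 96 h, and 4 higher and 5 lower at 48 h, by edgeR. At 48 h Acta2 was at 48 CPM in spheroids and 1210 CPM in monolayers, whereas Krt14 was at 1030 and 494 CPM. Beside these marker counts, 73.8% of all tested genes passed at 96 h and 57.9% at 48 h. For the 10 adipocyte markers the sums were 136.3 to 146.4 CPM in 96 h spheroids and 143 to 146 CPM in 96 h monolayers. At 48 h they were 578.4 to 619.7 CPM in spheroids and 147.9 to 167 CPM in monolayers. Lep and Cfd were at 0 in every group but the 96 h spheroids. Adipoq, Plin1 and Retn were also at 0 in 48 h monolayers, and Plin1 and Cidec in 96 h monolayers. Lpl or Fabp4 was the highest of these markers in each group. Endothelial and immune sums reached at most 86.25 CPM in any library. In bulk RNA, fewer cells of a type and less RNA per cell cannot be told apart, and the part of these shifts in the results was not tested.

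Of the 9 genes, 8 could be tested and 1, Tnfsf11, was too low. Nr3c2 passed the filter with only 7 to 25 counts per library, and Cited1 was near the floor in monolayers, with 2 to 12 counts per library. On the scale of FPKM, which divides by gene length and so allows genes to be ranked against each other, Fkbp5 led in every group, at 46.2 ± 1.06 FPKM in 96 h spheroids, 29.6 ± 1.09 in 96 h monolayers, 41.8 ± 2.03 in 48 h spheroids and 21.6 ± 1.24 in 48 h monolayers (SD, n = 3). Nr3c1 came next in 96 h spheroids (8.54 ± 0.502 FPKM), 96 h monolayers (11.9 ± 0.14 FPKM) and 48 h monolayers (8.5 ± 1.34 FPKM). In 48 h spheroids, Cited1 at 21.6 ± 2.11 FPKM and Pgr at 13.5 ± 0.829 FPKM stood above Nr3c1 at 9.78 ± 1.10 FPKM, without overlap between these neighbours. In 96 h spheroids, Cited1 at 6.55 ± 0.929 FPKM and Tnfrsf11a at 6.53 ± 0.0702 FPKM overlapped, followed by Pgr at 5.69 ± 0.123 FPKM and Esr1 at 2.91 ± 0.265 FPKM. In 96 h monolayers, Pgr (2.19 ± 0.167 FPKM) and Greb1 (2.10 ± 0.323 FPKM) overlapped, as did Tnfrsf11a (1.65 ± 0.0379 FPKM), Esr1 (1.43 ± 0.397 FPKM) and Cited1 (0.823 ± 0.503 FPKM) from one to the next. In 48 h monolayers, Esr1 at 1.26 ± 0.251 FPKM overlapped Pgr at 1.06 ± 0.0551 FPKM. Nr3c2 and Tnfsf11 had the lowest means in every group, with Nr3c2 at most 0.500 ± 0.173 FPKM and Tnfsf11 at most 0.327 ± 0.170 FPKM, both in 48 h spheroids. Nr3c2 overlapped its neighbour Cited1 in 96 h monolayers and its neighbour Greb1 (0.37 ± 0.0954 FPKM) in 48 h monolayers. In spheroids at both times Nr3c2 overlapped Tnfsf11.

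**Figure D1:**
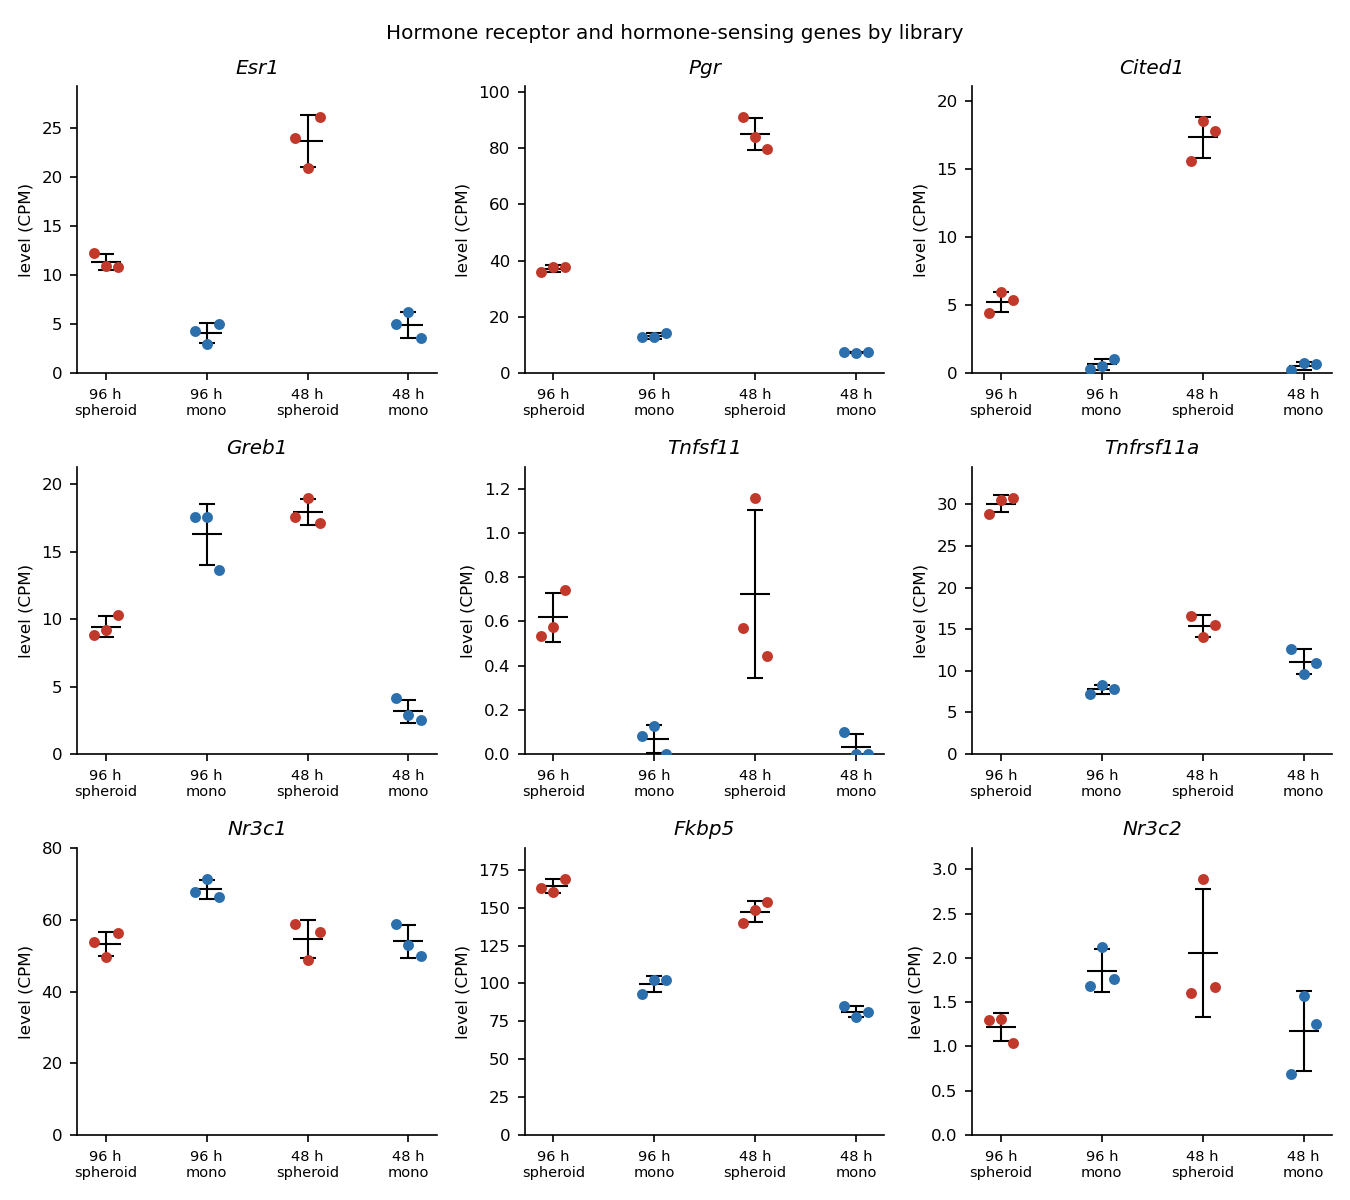
Level of each of the 9 genes in CPM (linear axes from 0) in each library, by group. Points are libraries (red, spheroids; blue, monolayers), and bars give the mean and SD of 3 libraries; Esr1, Pgr and Cited1 are highest in 48 h spheroids, Greb1 is high in 48 h spheroids and 96 h monolayers, and Tnfrsf11a is highest in 96 h spheroids.

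The receptors for oestrogen and progesterone were higher in spheroids at both times. Esr1 was at 12.2, 10.9 and 10.8 CPM in 96 h spheroids and at 4.24, 3.01 and 5.03 CPM in 96 h monolayers. At 48 h it was at 23.9, 20.96 and 26.2 CPM in spheroids and at 5.00, 6.22 and 3.58 CPM in monolayers. Every spheroid library lay above every monolayer library, and the 48 h spheroids lay above the 96 h spheroids. Spheroids held 4.78 times the monolayer level at 48 h (log2 fold change 2.26 ± 0.165 SE, adjusted p = 1.13e-09 by edgeR's quasi-likelihood test) and 2.71 times at 96 h (1.44 ± 0.181, adjusted p = 1.01e-06 by edgeR). In spheroids Esr1 fell 2.09-fold, to 11.3 ± 0.776 CPM at 96 h against 23.7 ± 2.61 CPM at 48 h (log2 fold change -1.06 ± 0.144, adjusted p = 9.95e-06 by edgeR). In monolayers it averaged 4.09 ± 1.02 CPM at 96 h and 4.93 ± 1.32 CPM at 48 h, the groups overlapped, and the difference did not pass the test (edgeR, adjusted p = 0.321).

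Pgr, the receptor for the progesterone in the medium, had a sharper contrast between formats than Esr1 at 48 h and a similar one at 96 h. Its level was 35.8, 37.7 and 37.9 CPM in 96 h spheroids and 12.6, 12.7 and 14.2 CPM in 96 h monolayers. At 48 h it was 91.1, 83.8 and 79.8 CPM in spheroids and 7.45, 7.22 and 7.34 CPM in monolayers. None of the 4 groups overlapped another. At 48 h Pgr was 11.6-fold higher in spheroids (log2 fold change 3.53 ± 0.0877, edgeR adjusted p = 2.47e-16), and at 96 h 2.81-fold higher (1.49 ± 0.0837, edgeR adjusted p = 1.34e-11). The formats moved in opposite directions with time. Pgr fell 2.29-fold in spheroids (log2 fold change -1.20 ± 0.0700, edgeR adjusted p = 1.52e-10) and rose 1.80-fold in monolayers (0.85 ± 0.105, edgeR adjusted p = 1.82e-06).

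Cited1, the cofactor of hormone-sensing cells, showed the largest fold difference of the 8 tested genes at each time. In 96 h spheroids it was at 4.43, 5.92 and 5.35 CPM, against 0.320, 0.501 and 1.06 CPM in 96 h monolayers. In 48 h spheroids it was at 15.6, 18.5 and 17.8 CPM, against 0.196, 0.746 and 0.626 CPM in 48 h monolayers. Both spheroid groups lay clear of both monolayer groups, and the monolayer groups overlapped. The raw counts behind the monolayer values were 4, 4 and 12 at 96 h and 2, 9 and 7 at 48 h. Spheroids were 31.5-fold higher at 48 h (log2 fold change 4.98 ± 0.278, edgeR adjusted p = 2.17e-11) and 8.18-fold higher at 96 h (3.03 ± 0.313, edgeR adjusted p = 7.21e-08). Between times Cited1 fell 3.3-fold in spheroids (log2 fold change -1.72 ± 0.187, edgeR adjusted p = 6.24e-07), while in monolayers the log2 difference was 0.22 (edgeR adjusted p = 0.712). Without replicate 3 of the 96 h monolayers, that value was -0.45, and without replicate 1 of the 48 h monolayers it was -0.13.

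Greb1, a cofactor of the oestrogen receptor and one of its direct targets, did not follow Esr1. Its level was 8.79, 9.21 and 10.3 CPM in 96 h spheroids and 17.6, 17.5 and 13.7 CPM in 96 h monolayers. At 48 h it was 17.6, 19.0 and 17.1 CPM in spheroids and 4.12, 2.90 and 2.50 CPM in monolayers. The 48 h spheroids and the 96 h monolayers overlapped at the top, and the 48 h monolayers were lowest. Greb1 was 5.67-fold higher in spheroids at 48 h (log2 fold change 2.50 ± 0.163, edgeR adjusted p = 1.98e-10) and 1.72-fold lower in spheroids at 96 h (-0.78 ± 0.134, edgeR adjusted p = 3.99e-05). It rose 5.14-fold with time in monolayers (log2 fold change 2.36 ± 0.163, edgeR adjusted p = 8.19e-10) and fell 1.89-fold in spheroids (-0.92 ± 0.134, edgeR adjusted p = 2.21e-05). Exons of Greb1 overlap those of a gene on the opposite strand in the GENCODE annotation, as do those of Nr3c2, and the sources used here do not say how strand was handled in counting, so reads of the partners cannot be told apart.

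The promoters of these 4 genes are shown because Esr1, Pgr and Cited1 were all higher in spheroids at both times and all fell with time in spheroids, whereas Greb1 departed from Esr1. Each sequence holds 250 bases before and 50 after the outermost start site of the gene on its own strand, from RefSeq on GRCm38.p6, another build than the mm9 of the counts. Capitals mark the estrogen response half-site GGTCA or its reverse complement TGACC. The windows lie at chr10:4611739-4612038 on the plus strand (Esr1), chr9:8899583-8899882 on the plus strand (Pgr), chrX:102252132-102252431 on the minus strand (Cited1) and chr12:16800837-16801136 on the minus strand (Greb1).
Esr1: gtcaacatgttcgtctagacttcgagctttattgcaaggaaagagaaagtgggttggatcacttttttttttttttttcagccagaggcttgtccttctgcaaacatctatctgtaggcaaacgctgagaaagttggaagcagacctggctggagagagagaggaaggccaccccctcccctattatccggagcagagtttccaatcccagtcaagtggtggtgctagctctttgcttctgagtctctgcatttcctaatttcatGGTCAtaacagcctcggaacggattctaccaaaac
Pgr: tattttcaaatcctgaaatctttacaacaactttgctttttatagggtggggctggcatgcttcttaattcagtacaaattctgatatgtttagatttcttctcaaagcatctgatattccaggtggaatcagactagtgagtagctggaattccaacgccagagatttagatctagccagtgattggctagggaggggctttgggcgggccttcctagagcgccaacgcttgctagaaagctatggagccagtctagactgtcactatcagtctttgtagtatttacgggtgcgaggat
Cited1: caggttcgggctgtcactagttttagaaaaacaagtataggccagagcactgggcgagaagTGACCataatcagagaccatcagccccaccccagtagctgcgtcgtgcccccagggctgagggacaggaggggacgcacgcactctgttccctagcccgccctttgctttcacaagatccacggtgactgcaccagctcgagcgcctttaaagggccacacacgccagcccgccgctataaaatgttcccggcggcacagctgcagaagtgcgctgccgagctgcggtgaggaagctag
Greb1: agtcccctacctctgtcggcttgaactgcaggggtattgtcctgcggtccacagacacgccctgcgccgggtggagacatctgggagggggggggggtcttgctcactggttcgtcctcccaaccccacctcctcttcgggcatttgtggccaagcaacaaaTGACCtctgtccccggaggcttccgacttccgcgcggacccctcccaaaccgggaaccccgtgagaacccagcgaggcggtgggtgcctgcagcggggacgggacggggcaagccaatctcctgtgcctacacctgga
The half-site GGTCA, searched on both strands, occurred 1 time in the windows of Esr1, Cited1 and Greb1 and not in that of Pgr; 40.5% of all 32851 promoter windows of this length hold it. The GC box GGGCGG occurred 1 time in the windows of Pgr and of Cited1 and is in 35.7% of all windows. Neither the glucocorticoid and progesterone half-site TGTTCT (19.0% of all windows) nor the STAT core TTCNNNGAA (8.3% of all windows) occurred in any of the 4. Overlaps between motifs were not removed. Nr3c1 was left out of this search. Of the other genes, Nr3c2 held GGTCA 2 times and GGGCGG 3 times, Tnfrsf11a and Fkbp5 held GGGCGG 5 and 4 times, and Tnfsf11 held none of these motifs. A match is a stretch of letters only, and a window without one says nothing about sites elsewhere.

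Tnfsf11, the RANKL that hormone-sensing cells secrete, was too low to be tested. Its counts were 7, 7 and 10 in the 96 h spheroid libraries and 1, 1 and 0 in the 96 h monolayer libraries. At 48 h they were 6, 10 and 4 in spheroids and 1, 0 and 0 in monolayers. Every spheroid library held more counts than every monolayer library, but all lay near the floor. Group totals were 24 counts (exact 95% Poisson interval 15.4 to 35.7) in 96 h spheroids against 2 (0.242 to 7.22) in 96 h monolayers. The totals at 48 h were 20 (12.2 to 30.9) in spheroids against 1 (0.0253 to 5.57) in monolayers. Per library size, the ratio of spheroids to monolayers was 9.87 (95% interval 2.45 to 86.1) at 96 h and 23.7 (3.79 to 983) at 48 h, and that of 96 h to 48 h spheroids was 0.874 (0.463 to 1.67). These intervals cover counting error only.

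Tnfrsf11a, the RANK receptor, was highest in the later spheroids, as Fkbp5 was. Its level was 28.9, 30.5 and 30.8 CPM in 96 h spheroids and 7.20, 8.27 and 7.85 CPM in 96 h monolayers. At 48 h it was 16.6, 14.01 and 15.5 CPM in spheroids and 12.7, 9.62 and 11 CPM in monolayers. No group overlapped another. Spheroids were 3.89-fold higher at 96 h (log2 fold change 1.96 ± 0.110, edgeR adjusted p = 1.41e-11) and 1.40-fold higher at 48 h (0.48 ± 0.114, edgeR adjusted p = 0.00139). With time Tnfrsf11a rose 1.95-fold in spheroids (log2 fold change 0.96 ± 0.101, edgeR adjusted p = 4.16e-07) and fell 1.43-fold in monolayers (-0.52 ± 0.125, edgeR adjusted p = 0.00165).

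Around the receptor, a list of 20 RANK signalling genes was taken from general knowledge, and all 20 were tested. For this and the following lists, each difference given between groups passed edgeR's test at an adjusted p of 0.05 unless its p or a remark says otherwise. At 96 h, 9 rose and 6 fell in spheroids relative to monolayers, with a median log2 fold change of 0.10, and at 48 h 3 rose and 8 fell, with a median of -0.08. The medians over all tested genes were -0.001 at 96 h and 0.05 at 48 h. The shares of the list called, 75% at 96 h and 55% at 48 h, were near those of all tested genes, 73.8% and 57.9%. Tnfrsf11b, which encodes osteoprotegerin, the secreted decoy that binds RANKL, was at 8.15 ± 0.766 CPM in 96 h spheroids and 25.1 ± 3.29 CPM in 96 h monolayers (log2 fold change -1.61, edgeR adjusted p = 3.54e-10). At 48 h Tnfrsf11b was at 0.988 ± 0.158 CPM in spheroids and 30.7 ± 1.04 CPM in monolayers (-4.94, edgeR adjusted p = 3.01e-14), and in spheroids it rose with time by 3.02 on the log2 scale (edgeR adjusted p = 1.35e-09). Id2, a regulator downstream of RANK in the mammary gland, was at 132 ± 4.27 CPM in 96 h spheroids and 21.5 ± 1.09 CPM in 96 h monolayers, and at 207 ± 9.94 CPM in 48 h spheroids and 6.51 ± 1.35 CPM in 48 h monolayers. Its log2 fold change was 2.62 at 96 h and 4.99 at 48 h (edgeR adjusted p = 4.6e-15 and 1.66e-17). In monolayers Birc3 and Map3k14, which act in NF-kB signalling, fell with time by 1.55 and 1.16 on the log2 scale (edgeR adjusted p = 7.33e-11 and 1.34e-06).

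Nr3c1, the glucocorticoid receptor, varied least. Its level was 54.0, 49.6 and 56.4 CPM in 96 h spheroids and 67.7, 71.5 and 66.4 CPM in 96 h monolayers. At 48 h it was 58.9, 48.9 and 56.6 CPM in spheroids and 58.9, 53.2 and 50.01 CPM in monolayers. The 96 h monolayers lay above the other 3 groups, which overlapped. Nr3c1 was 1.28-fold lower in spheroids at 96 h (log2 fold change -0.36 ± 0.0795, edgeR adjusted p = 0.000524) and rose 1.27-fold with time in monolayers (0.34 ± 0.0803, edgeR adjusted p = 0.0013). The difference at 48 h, 0.02 ± 0.0822 (edgeR adjusted p = 0.818), and that over time in spheroids, -0.04 (edgeR adjusted p = 0.721), did not pass and were of either sign under other settings.

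Fkbp5, which binds steroid receptor complexes and is induced by the receptors it restrains, was higher in spheroids. Its level was 163, 160 and 169 CPM in 96 h spheroids and 93.4, 102 and 102 CPM in 96 h monolayers. At 48 h it was 140, 149 and 154 CPM in spheroids and 85.4, 78.0 and 81.1 CPM in monolayers. None of these groups overlapped. The fold differences were 1.65 at 96 h (log2 0.73 ± 0.0634, edgeR adjusted p = 7.35e-09) and 1.81 at 48 h (0.86 ± 0.0647, edgeR adjusted p = 1.77e-09). In monolayers it rose 1.22-fold with time (log2 0.29 ± 0.0653, edgeR adjusted p = 0.00103). In spheroids the log2 difference over time was 0.16 ± 0.0624 (edgeR adjusted p = 0.0532), and it passed at 0.0258 when only the spheroid groups were fitted.

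Nr3c2, the mineralocorticoid receptor, was at the edge of what these libraries can measure. Its counts were 17, 16 and 14 in 96 h spheroids and 21, 17 and 20 in 96 h monolayers, and 17, 25 and 15 in 48 h spheroids and 7, 19 and 14 in 48 h monolayers. As levels these were 1.22 ± 0.155 CPM in 96 h spheroids and 1.86 ± 0.239 CPM in 96 h monolayers, and 2.06 ± 0.726 CPM in 48 h spheroids and 1.17 ± 0.450 CPM in 48 h monolayers. Spheroids lay below monolayers at 96 h and above them at 48 h without overlap, yet neither difference passed (log2 fold change -0.59 ± 0.322, adjusted p = 0.107, and 0.77 ± 0.332, adjusted p = 0.0553, by edgeR). The changes with time, -0.74 in spheroids and 0.62 in monolayers, did not pass either (edgeR adjusted p = 0.0786 and 0.113). The value at 48 h passed under some other settings, for example at 0.0283 with libraries scaled by their totals alone.

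**Figure D2:**
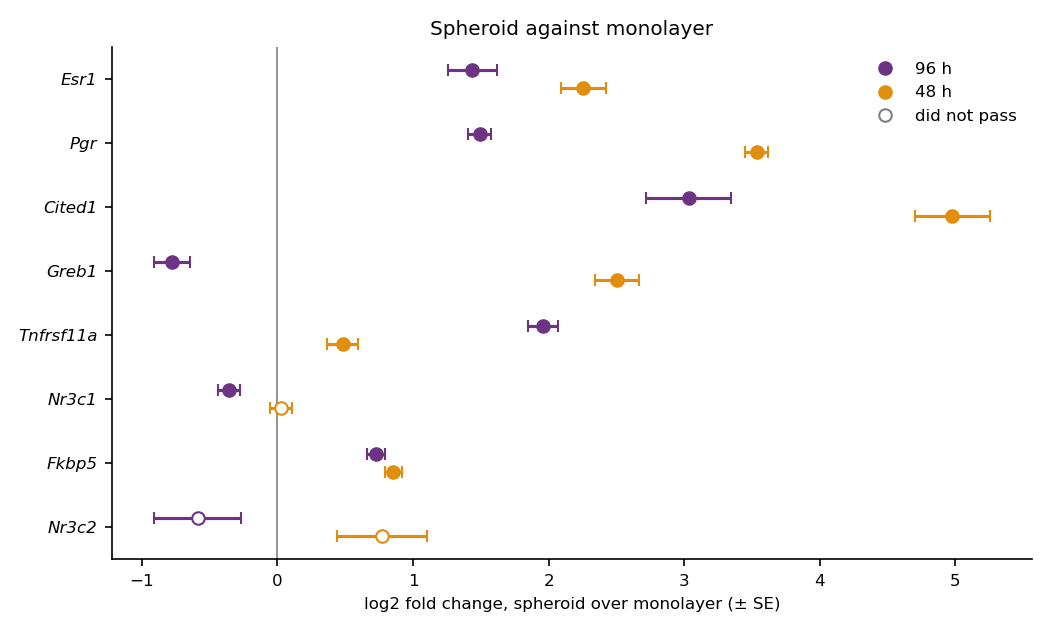
Log2 fold change of spheroids over monolayers for the 8 tested genes at 96 h (purple) and 48 h (orange), with the SE as bars; filled points passed an adjusted p of 0.05 in edgeR, open points did not. Esr1, Pgr, Cited1, Tnfrsf11a and Fkbp5 are to the right of 0 at both times, and Greb1 changes side, at 2.50 for 48 h and -0.78 for 96 h.

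Counted over the 8 tested genes, 5 rose and 2 fell in spheroids relative to monolayers at 96 h, with Nr3c2 not passing, and their median log2 fold change was 1.08. At 48 h 6 rose and none fell, with a median of 1.56. The shares called, 87.5% at 96 h and 75% at 48 h, stand beside 73.8% of all 13951 tested genes called at 96 h (37.3% higher and 36.5% lower) and 57.9% at 48 h (31.6% higher and 26.4% lower). Spheroid and monolayer libraries did not overlap for 8 of the 8 genes at 96 h and 7 at 48 h, beside 78.9% and 60.0% of all tested genes. With such backgrounds, the number of genes called says little about the set, and the sizes of the differences carry the description.

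Over time in spheroids, 1 of the 8 genes rose (Tnfrsf11a) and 4 fell (Esr1, Pgr, Cited1 and Greb1), with a median log2 fold change of -0.83, beside 39.8% of all tested genes called (19.3% higher and 20.5% lower). In monolayers 4 rose (Pgr, Greb1, Nr3c1 and Fkbp5) and 1 fell (Tnfrsf11a), with a median of 0.31, beside 61.3% of all tested genes called (30.1% higher and 31.3% lower). The 96 h and 48 h libraries did not overlap for 7 of the 8 genes in spheroids and for 6 in monolayers, beside 53.8% and 63.8% of all tested genes.

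**Figure D3:**
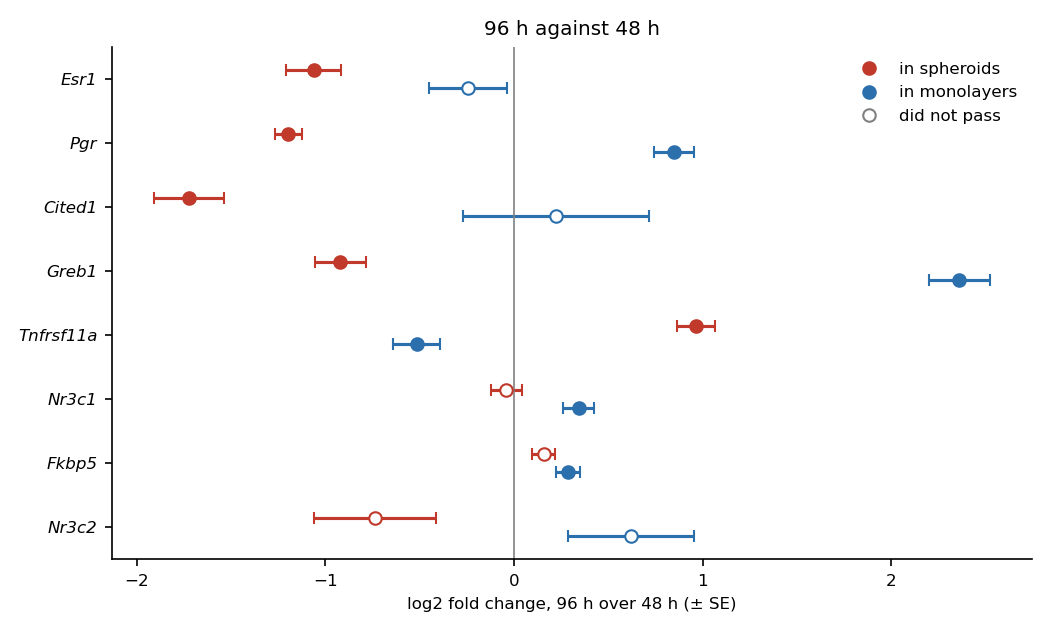
Log2 fold change of 96 h over 48 h for the 8 tested genes in spheroids (red) and monolayers (blue), with the SE as bars; filled points passed an adjusted p of 0.05 in edgeR. Pgr, Greb1 and Tnfrsf11a passed on opposite sides of 0 in the formats: Pgr at -1.20 in spheroids and 0.85 in monolayers, Greb1 at -0.92 and 2.36, Tnfrsf11a at 0.96 and -0.52.

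The interaction term (log2 effect of format at 96 h minus its effect at 48 h) tests whether the difference between formats itself differed between times. It passed for 7 of the 8 genes, 1 upward and 6 downward, beside 53.3% of all tested genes (26.9% upward and 26.4% downward). Greb1 had the largest value, -3.28 ± 0.212 on the log2 scale (edgeR adjusted p = 4.61e-10), followed by Pgr at -2.04 ± 0.126 (edgeR adjusted p = 2.41e-10) and Cited1 at -1.95 ± 0.543 (edgeR adjusted p = 0.00577). Tnfrsf11a alone among them was positive, at 1.48 ± 0.161 (edgeR adjusted p = 4.47e-07). Smaller values belonged to Nr3c2 (-1.36 ± 0.463, edgeR adjusted p = 0.0195), Esr1 (-0.82 ± 0.255, edgeR adjusted p = 0.0114) and Nr3c1 (-0.38 ± 0.114, edgeR adjusted p = 0.00895). For Fkbp5 it was -0.13 ± 0.0902 and did not pass (edgeR adjusted p = 0.24). Replicate 3 of the 96 h monolayers decided 2 of these calls: without it the interaction was -0.65 for Esr1 (edgeR adjusted p = 0.0601) and -1.27 for Cited1 (edgeR adjusted p = 0.112). For Nr3c2 the call was lost without replicate 1 of the 48 h monolayers (-1.09, edgeR adjusted p = 0.0511) or without replicate 2 of the 48 h spheroids (-1.04, edgeR adjusted p = 0.0746).

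Ratios of counts within a library do not depend on how libraries are scaled. Pgr per Esr1 was 3.29 ± 0.315 in 96 h spheroids and 3.34 ± 0.758 in 96 h monolayers, which overlapped, and 3.62 ± 0.501 in 48 h spheroids and 1.57 ± 0.450 in 48 h monolayers, which did not. Greb1 per Esr1 was 0.838 ± 0.117 in 96 h spheroids and 4.23 ± 1.56 in 96 h monolayers, where it ran from 2.72 to 5.83. At 48 h Greb1 per Esr1 was 0.766 ± 0.128 in spheroids and 0.663 ± 0.181 in monolayers, so the 96 h monolayers stood above the other 3 groups. Cited1 per Esr1 was 0.466 ± 0.0925 in 96 h spheroids and 0.151 ± 0.0689 in 96 h monolayers, and 0.739 ± 0.126 in 48 h spheroids and 0.111 ± 0.0683 in 48 h monolayers. Fkbp5 per Nr3c1 was 3.09 ± 0.129 in 96 h spheroids and 1.45 ± 0.0837 in 96 h monolayers, and 2.71 ± 0.336 in 48 h spheroids and 1.51 ± 0.0944 in 48 h monolayers. The spheroids lay above the monolayers for Cited1 per Esr1 and Fkbp5 per Nr3c1 at both times. With 3 libraries against 3, a 2-sided exact permutation test cannot go below p = 0.1, the value that each pair of groups without overlap reached.

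**Figure D4:**
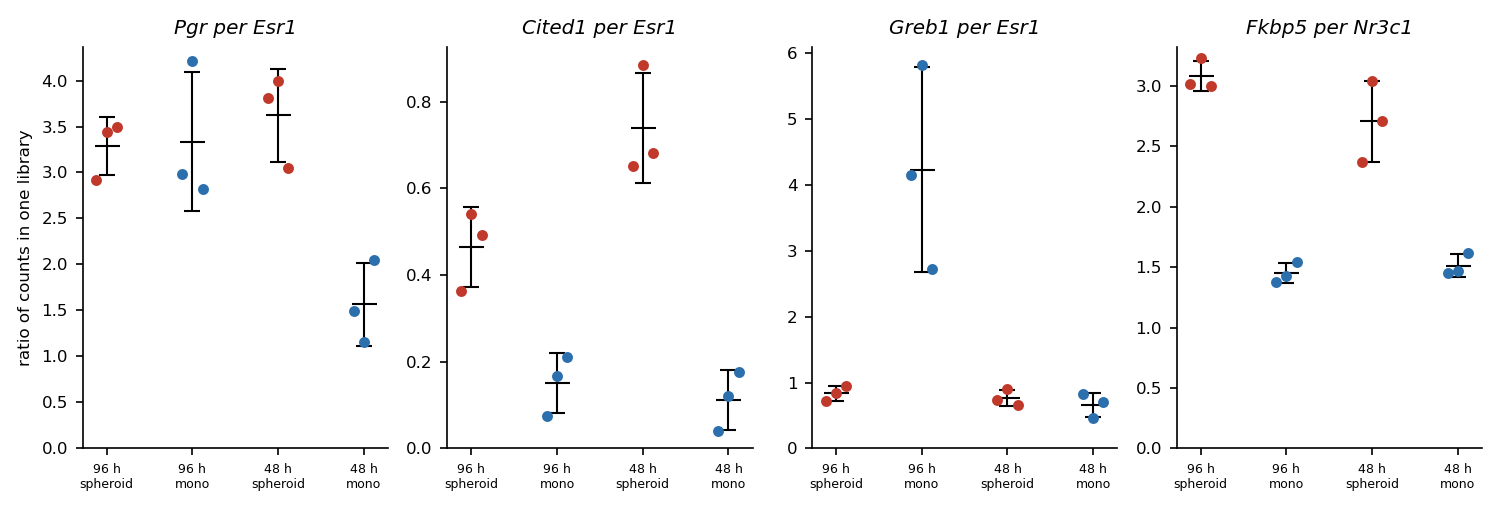
Ratio of the counts of 2 genes in the same library, by group (linear axes from 0). Points are libraries (red, spheroids; blue, monolayers) and bars give the mean and SD of 3 libraries; Greb1 per Esr1 is at 2.72 to 5.83 in 96 h monolayers, above all other libraries, and Fkbp5 per Nr3c1 separates spheroids from monolayers.

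Further hormone-sensing luminal genes, a list of 21 of which 18 were tested, were mostly higher in spheroids: 14 rose and 3 fell at 96 h (median log2 fold change 1.02), and 15 rose and 1 fell at 48 h (median 1.42). The shares called, 94.4% at 96 h and 88.9% at 48 h, stand beside 73.8% of all tested genes at 96 h (37.3% higher) and 57.9% at 48 h (31.6% higher). The list is not independent of the others: Foxa1, Prlr, Areg, Wnt4, Prom1 and Ly6a are also among the hormone-sensing markers summed above. Areg, Igfbp4, Xbp1 and Stc2 are also in the oestrogen response list that follows. Prlr, the prolactin receptor, was at 147 ± 6.10 CPM in 96 h spheroids and 25.5 ± 4.10 CPM in 96 h monolayers, and at 127 ± 15.1 CPM in 48 h spheroids and 15.2 ± 3.65 CPM in 48 h monolayers. Wnt4, a secreted factor that progesterone induces in hormone-sensing cells, was at 24.5 ± 1.42 CPM in 48 h spheroids and 2.56 ± 0.688 CPM in 48 h monolayers (log2 fold change 3.25, edgeR adjusted p = 1.93e-12). Areg, the EGF-family ligand that carries the oestrogen signal, was at 135 ± 4.05 CPM in 48 h spheroids against 37.7 ± 5.07 CPM in 48 h monolayers, and in spheroids it fell to 44.4 ± 1.93 CPM at 96 h (log2 fold change -1.61, edgeR adjusted p = 1.97e-11). Aqp5, a water channel, reached 136 ± 7.76 CPM in 96 h spheroids against 7.00 ± 2.52 CPM in 96 h monolayers. Wnt5a went the other way, at 13.5 ± 0.481 CPM in 96 h spheroids and 55.1 ± 6.47 CPM in 96 h monolayers, and at 34.2 ± 1.70 CPM in 48 h spheroids and 77.1 ± 2.49 CPM in 48 h monolayers. With time, 4 of the 18 rose and 8 fell in spheroids, and 5 rose and 7 fell in monolayers, 66.7% called in each format beside 39.8% of all tested genes in spheroids and 61.3% in monolayers.

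Oestrogen response genes, Pgr and Greb1 among them and most of them described in human breast cancer cells, gave the same counts at both times, 12 of 19 higher and 4 lower in spheroids (medians 0.52 at 96 h and 0.56 at 48 h). That is 84.2% called at each time, beside 73.8% of all tested genes at 96 h and 57.9% at 48 h. The genes behind these counts were not all the same, since Greb1 was higher in spheroids at 48 h and lower at 96 h. The interaction passed upward for 6 and downward for 6 of the 19, or 63.2%, beside 53.3% of all tested genes. Stc2, a secreted glycoprotein hormone, was at 109 ± 1.38 CPM in 96 h spheroids and 27.1 ± 3.08 CPM in 96 h monolayers, and at 225 ± 4.48 CPM in 48 h spheroids and 27.6 ± 0.805 CPM in 48 h monolayers. Ca12, a carbonic anhydrase listed in the files as Car12, was at 11.8 ± 0.351 CPM in 48 h spheroids and 0.799 ± 0.170 CPM in 48 h monolayers, and in monolayers it rose with time to 8.20 ± 1.09 CPM (log2 fold change 3.34, edgeR adjusted p = 7.05e-10). Cxcl12, a chemokine, fell by 1.09 at 96 h and by 1.13 at 48 h on the log2 scale in spheroids relative to monolayers (edgeR adjusted p = 3.23e-07 and 1.67e-08).

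The glucocorticoid-induced genes, all 20 of them tested and Fkbp5 among them, held calls in both directions. At 96 h 8 rose and 10 fell in spheroids relative to monolayers (median -0.37), and at 48 h 10 rose and 6 fell (median 0.57). The shares called were 90% at 96 h and 80% at 48 h, beside 73.8% of all tested genes at 96 h (37.3% higher and 36.5% lower) and 57.9% at 48 h. Glul, glutamine synthetase, was at 355 ± 15 CPM in 96 h spheroids and 90.3 ± 7.91 CPM in 96 h monolayers, and at 1160 ± 16.9 CPM in 48 h spheroids and 74.4 ± 4.82 CPM in 48 h monolayers. Zbtb16, a transcription factor, was at 21.9 ± 2.49 CPM in 48 h spheroids and 2.30 ± 0.800 CPM in 48 h monolayers. Pdk4, the kinase that holds back pyruvate oxidation, and Angptl4, a secreted inhibitor of lipoprotein lipase, moved in opposite directions with time. Pdk4 fell by 3.49 in spheroids (edgeR adjusted p = 3e-14) and rose by 1.38 in monolayers (edgeR adjusted p = 6.2e-09) on the log2 scale. Angptl4 fell by 2.89 in spheroids (edgeR adjusted p = 1.11e-13) and rose by 2.11 in monolayers (edgeR adjusted p = 1.59e-12). Dusp1, a phosphatase of MAP kinases, was at 8.58 ± 1.54 CPM in 96 h spheroids and 50.7 ± 5.44 CPM in 96 h monolayers, and Tns1, a focal adhesion protein, at 15.5 ± 1.74 CPM in 96 h spheroids and 105 ± 10.8 CPM in 96 h monolayers. Over time in spheroids, 2 of the 20 rose and 12 fell, 70% called beside 39.8% of all tested genes.

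Among mineralocorticoid and sodium transport genes, 9 of 11 tested rose and 2 fell in spheroids relative to monolayers at 96 h (median 0.91), and 8 rose and 1 fell at 48 h (median 0.89). All 11 were thus called at 96 h and 81.8% at 48 h, beside 73.8% and 57.9% of all tested genes. Sgk1, Per1 and Tsc22d3 are in the glucocorticoid-induced list too. Scnn1a, a subunit of the epithelial sodium channel, was at 35.1 ± 0.911 CPM in 96 h spheroids and 9.05 ± 1.41 CPM in 96 h monolayers. Atp1b1, a subunit of the sodium pump, was at 316 ± 18.4 CPM in 96 h spheroids and 107 ± 9.66 CPM in 96 h monolayers. Sgk1, the kinase that keeps the channel at the membrane, fell with time in both formats, to 151 ± 7.22 CPM at 96 h against 349 ± 8.46 CPM at 48 h in spheroids and to 322 ± 14.8 CPM at 96 h against 607 ± 39.2 CPM at 48 h in monolayers. Hsd11b2, which inactivates glucocorticoids, was low throughout, at 1.5 ± 0.0267 CPM in 96 h spheroids and 6.43 ± 2.39 CPM in 96 h monolayers (log2 fold change -2.11, edgeR adjusted p = 1.14e-06).

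Genes that make or break down steroids numbered 15 tested of 20, of which 8 rose and 3 fell at 96 h (median 0.32) and 8 rose and 1 fell at 48 h (median 0.24) in spheroids. The shares called, 73.3% and 60%, were near those of all tested genes, 73.8% at 96 h and 57.9% at 48 h. Akr1c18, the enzyme that inactivates progesterone, was at 32.8 ± 3.02 CPM in 48 h spheroids and 1.08 ± 0.465 CPM in 48 h monolayers (log2 fold change 4.92, edgeR adjusted p = 3.12e-13). With time Akr1c18 fell to 5.57 ± 1.14 CPM at 96 h in spheroids (edgeR adjusted p = 1.52e-10) and rose to 6.59 ± 0.842 CPM at 96 h in monolayers (edgeR adjusted p = 6.78e-08), and the 96 h formats did not differ past the threshold (edgeR adjusted p = 0.196). Cyp1b1, which oxidises oestrogens, was at 177 ± 6.54 CPM in 96 h spheroids and 35.2 ± 12 CPM in 96 h monolayers, and at 778 ± 64.0 CPM in 48 h spheroids and 71.0 ± 5.57 CPM in 48 h monolayers. Star, which moves cholesterol into mitochondria for steroid synthesis, was at 0.688 ± 0.437 CPM in 96 h spheroids and 29.5 ± 3.68 CPM in 96 h monolayers, and at 2.16 ± 0.778 CPM in 48 h spheroids and 2.03 ± 0.771 CPM in 48 h monolayers, which did not differ past the threshold. Star and Hsd11b2 had their highest level in 96 h monolayers.

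Of the chaperones that hold steroid receptors ready for hormone, 12 of 15 rose and none fell in spheroids relative to monolayers at 96 h (median 0.32; edgeR), and 7 rose and 1 fell at 48 h (median 0.14). The shares called, 80% at 96 h and 53.3% at 48 h, were near the 73.8% and 57.9% of all tested genes, and the 8 calls at 48 h became 4 when only the 48 h groups were fitted. Fkbp4, the co-chaperone that opposes Fkbp5, was at 234 ± 5.71 CPM in 96 h spheroids and 129 ± 5.51 CPM in 96 h monolayers (log2 fold change 0.85, edgeR adjusted p = 2.9e-09), and at 215 ± 11.7 CPM in 48 h spheroids and 172 ± 14.5 CPM in 48 h monolayers. Over time, 10 of the 15 fell in monolayers and none rose (66.7% called, beside 61.3% of all tested genes), while 1 fell in spheroids, Hsp90aa1 at 1090 ± 29.0 CPM at 96 h against 1270 ± 55.9 CPM at 48 h (edgeR adjusted p = 0.0176). Of 20 coregulators, 8 rose and 5 fell at 96 h (median 0.04) and 6 rose and 2 fell at 48 h (median 0.17). These shares, 65% and 40%, were below the 73.8% and 57.9% of all tested genes, and the 8 calls at 48 h became 13 with libraries scaled by their totals alone. Ncoa7, a coactivator of oestrogen receptor alpha, was at 34.7 ± 3.64 CPM in 96 h spheroids and 13.0 ± 0.698 CPM in 96 h monolayers, against the reverse order at 48 h, with 12.8 ± 1.06 CPM in spheroids and 20.7 ± 1.62 CPM in monolayers.

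Other nuclear receptors, not all of them for steroids, and membrane steroid receptors made up a list of 20, of which 17 were tested. In spheroids relative to monolayers, 8 rose and 7 fell at 96 h (median 0.28), and 6 rose and 3 fell at 48 h (median 0.07). The shares called were 88.2% at 96 h and 52.9% at 48 h, beside 73.8% and 57.9% of all tested genes. Vdr, the vitamin D receptor, was at 112 ± 2.78 CPM in 96 h spheroids and 32.2 ± 2.99 CPM in 96 h monolayers, and at 81.4 ± 2.66 CPM in 48 h spheroids and 26.4 ± 3.60 CPM in 48 h monolayers. Rarb, a retinoic acid receptor, was at 1.24 ± 0.207 CPM in 96 h spheroids and 7.00 ± 0.592 CPM in 96 h monolayers, and at 0.860 ± 0.442 CPM in 48 h spheroids and 8.74 ± 1.19 CPM in 48 h monolayers. Thrb, a thyroid hormone receptor, rose with time in monolayers by 2.001 on the log2 scale (edgeR adjusted p = 9.85e-09).

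**Figure D5:**
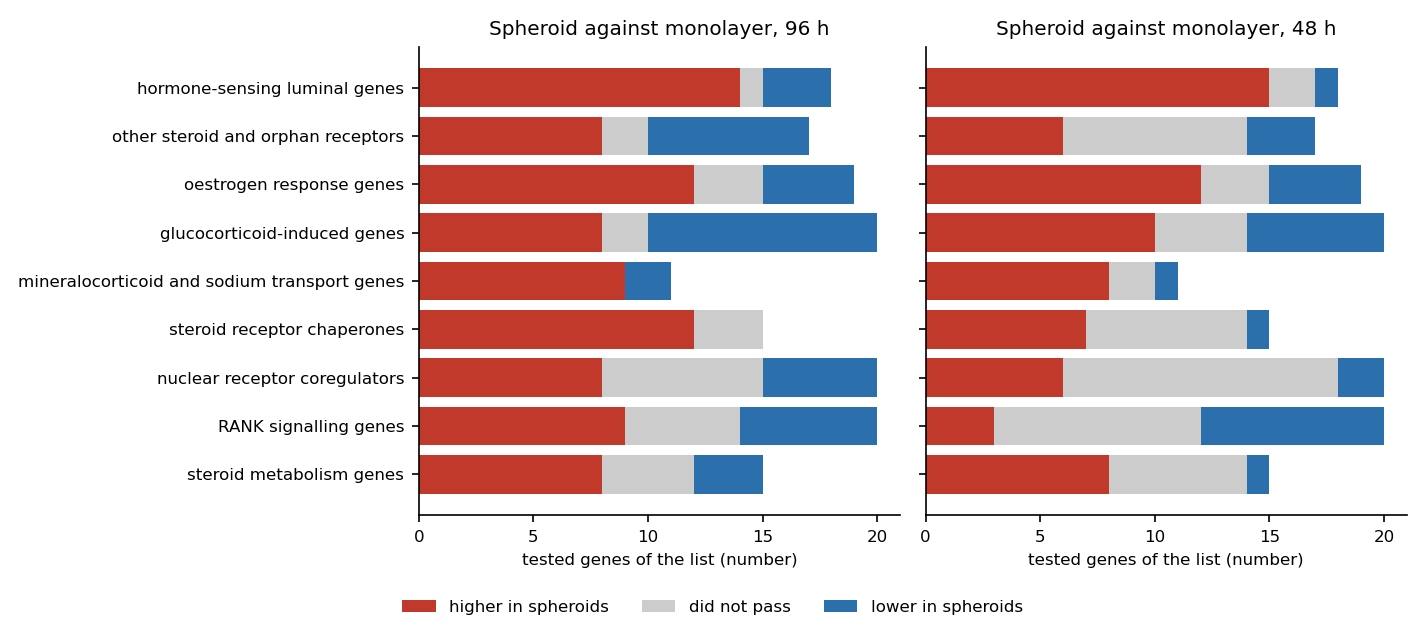
Number of tested genes of each list that were higher (red), lower (blue) or did not pass (grey) in spheroids relative to monolayers at 96 h (left) and 48 h (right), by edgeR at an adjusted p of 0.05. The hormone-sensing luminal list has 14 of 18 higher at 96 h and 15 of 18 at 48 h; the glucocorticoid-induced list has 8 of 20 higher at 96 h and 10 of 20 at 48 h.

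Among all tested genes, those whose profile over the 12 libraries lay nearest to each of the 8 genes were sought by the root mean square difference of centred log2 CPM. For Esr1 they were Rnf208 (0.26), Ggt1 (0.288) and Tns4 (0.294), against 1.03 for the spread of Esr1 about its own mean. For Pgr they were Abcc3 (0.251), Ucp2 (0.265) and Fmo1 (0.295), against a spread of 1.35. Tnfrsf11a had close neighbours in Enpp4 (0.089) and Far1 (0.153), against 0.72. Greb1 was nearest to Gda (0.246), Lifr (0.248) and Slc48a1 (0.285), against 0.99. Fkbp5 lay next to a row that merges AK044623 and Tob2 (0.069), against 0.41. Cited1, with a spread of 2.03, had no neighbour nearer than AK049295 (0.447), Notum (0.456) and Nqo1 (0.472). For Nr3c1 the nearest was Ube4a (0.042, against 0.17) and for Nr3c2 3110062M04Rik (0.235, against 0.44). None of the 8 tested genes was among the nearest 3 of another, and Tnfsf11, being too low to test, was not in the search.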

How the data were processed

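The authors deposited expected counts per gene for 12 libraries, estimated with RSEM 1.2.30 after Bowtie 1.0.1 on mm9, per the submitters' processing notes, and rounded to whole numbers. They also deposited log2 values of FPKM plus 1, turned back here to FPKM (fragments per kilobase, scaled to library size). The sources used here give neither strand setting nor read filters. The series describes the replicates as biological; whether they come from different animals is not given. Counts were analysed with edgeR 4.0.16 in R 4.3.3: filterByExpr (min.count 10, min.total.count 15), TMM factors of 0.923 to 1.07, and 1 quasi-likelihood fit over all 12 libraries with a mean per group (common dispersion 0.00501). P-values were 2-sided and Benjamini-Hochberg adjusted over all 13951 genes, with a threshold of 0.05; "rose" and "fell" are used only of genes past it. The SE is the log2 fold change divided by the square root of F and may be too small at low counts. Replicates differed by more than counting error (chi-square per degree of freedom 2.44 to 17.7). Reads carried no molecular identifiers. The script was checked on simulated counts. Alternatives used other scalings, filters and samples, DESeq2 1.42.0, limma 3.58.1 on the deposited log2 values, a replicate block, and each library left out. The genes and lists were chosen with earlier results of these data known. Beyond the 9 genes, the text names from each list and contrast up to 3 genes with the largest change past the threshold (groups without overlap, average log2 CPM 1 or more), and 1 in the other direction; Foxa1 was named after its values were seen. A few genes that this rule selects are not reported here. Gene names for 4 symbols came from older names in the files.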

Additional observations from a re-analysis of the deposited data

Results flagged for a closer look

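The difference between spheroids and monolayers itself differed between 96 h and 48 h for 7 of the 8 tested genes, by the interaction term of the edgeR fit (log2 effect at 96 h minus log2 effect at 48 h). This term also passed for 53.3% of all 13951 tested genes, so the count says little about the set. For Greb1 the interaction was -3.282 (edgeR adjusted p = 4.61e-10), and the direction turned. For Pgr it was -2.042 (edgeR adjusted p = 2.41e-10), for Cited1 -1.946 (edgeR adjusted p = 0.00577), for Esr1 -0.82 (edgeR adjusted p = 0.0114), for Nr3c1 -0.383 (edgeR adjusted p = 0.00895) and for Nr3c2 -1.358 (edgeR adjusted p = 0.0195). Tnfrsf11a had a positive value, 1.478 (edgeR adjusted p = 4.47e-07). Of the 7 values, those of Esr1, Cited1 and Nr3c2 lost their call when a single library was left out, as given above.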

How the results depend on the processing

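The numbers of all genes called and of the 8 tested genes called were each within 1.5 times the reported number in all 104 alternatives run for each. For only 8 genes this limit is hard to exceed. The interaction was called for 5 to 8 of them, depending on the alternative. Of 832 alternative values of single genes, 805 kept their direction and side of the threshold, 4 lost the call, 13 gained one and 10 changed sign; all 10 belonged to differences that had not passed. Nr3c1 at 48 h was -0.016 with RLE scaling, -0.015 with 2 groups in the fit, -0.017 with DESeq2 and -0.033 to 0.097 with a library left out; over time in spheroids it was -0.111 to 0.02 with a library left out. Cited1 over time in monolayers was -0.45 to 0.607 with a library left out, below 0 without replicate 3 of the 96 h or replicate 1 of the 48 h monolayers, and Esr1 over time in monolayers was 0.093 with limma on log2(FPKM + 1); the cause was not tested. The 4 lost calls were interactions of Esr1, Cited1 and Nr3c2 with 1 library left out. Calls gained were of Nr3c2 and Fkbp5: Fkbp5's interaction passed with total-count scaling (-0.316, adjusted p = 0.00634) and with limma (-0.299, adjusted p = 0.00738). Of 936 counts per gene list, 26 moved by over 1.5 times, most of them for chaperones and coregulators, for example 13 coregulators called at 48 h with total-count scaling against 8. Scaling by total counts moved the median of all genes by 0.109 at 48 h, by 0.172 over time in monolayers and by -0.188 in the interaction; the share of calls that were higher was then 65.1% at 48 h against 54.5%, 66.2% over time in monolayers against 49%, and 34.2% in the interaction against 50.5%. Without the filter on low counts, Tnfsf11 passed at 48 h (log2 4.13, adjusted p = 0.000347) and at 96 h (3.1, adjusted p = 0.00177). The replicate numbers were not taken to pair the samples: correlations of same-numbered libraries' deviations ran from -0.145 to 0.266, and 13 of 36 comparisons were best with the own number. With the replicate block, 8110 genes were called at 48 h and 10287 at 96 h, and Nr3c2 passed at 48 h (0.788, adjusted p = 0.0395). Summing several rows of a symbol was not run, since each gene has 1 row. Depth limits Tnfsf11, Nr3c2 and, in monolayers, Cited1.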
